A study of Oryza sativa with 12 samples.

Results

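Heat shock genes were followed in germinating rice seeds of 2 genotypes, in water and in salt. The set was chosen by locus and held 10 gene IDs, namely 7 small heat shock proteins (small HSPs), HSP101, the HSP90 gene HSP81-1 and the heat shock transcription factor HsfA2a. Of these, 9 had a row among the 35204 IDs of each library, and Os03g0267200 was not analysed here. The small HSP Os01g0184100 stayed too low to test, which left 8 genes among the 22017 IDs tested.

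The 4 groups, of 3 libraries each, were seeds of the cultivar Zhonghua 11 (the wild type, WT) in water, seeds with OsMFT1 knocked out (osmft1) in water, WT in 300 mM NaCl and osmft1 in 300 mM NaCl. OsMFT1 is a MOTHER OF FT AND TFL1 gene, a family that takes part in the control of seed dormancy and germination. All seeds were kept at 28 °C with 15 h of light and 9 h of dark, so no group was heated. The labels give neither the sampling time, the germination stage, nor the number of alleles or lines of the knockout, and nothing in them ties the 3 libraries of a group to separate seed lots. The p-values below therefore rest on the spread between libraries, part of which may be technical, and a difference in stage between groups and a response to salt or to the knockout cannot be told apart.

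Heat shock proteins are molecular chaperones. Small HSPs bind unfolding proteins and hold them in a state from which they can be refolded, HSP101 pulls proteins back out of aggregates together with the HSP70 system, and HSP90 helps client proteins, among them kinases and transcription factors, to reach their active form. Heat shock factors such as the HsfA2 class switch these genes on through heat shock elements in their promoters, and the HsfA2 genes of plants are themselves strongly induced by heat. In seeds the same chaperones are made without heat late in maturation, as the embryo acquires tolerance to drying, and they are lost again during germination.

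The libraries held 14379728 to 15688593 counted reads, as recovered from the steps of the deposited values, and levels are in FPKM (reads scaled to gene length and to the library's total). The first principal component of all tested IDs held 59.8% of the variance and separated water, at -85.4 to -49.7, from salt. On it WT in salt stood at 73.8 to 87.4, and replicates 1, 2 and 3 of osmft1 in salt at 39.2, 63.7 and 57.5. The locus taken as OsMFT1 from published knowledge, Os06g0498800, had 1 to 8 reads per library, from 0.0811 to 0.685 FPKM, and at this level did not check the genotype labels. The tissue was checked with short lists of loci taken from published knowledge. The summed level of 6 seed storage protein loci was 79.5 to 164.6 FPKM in WT in water and 746.0 to 1811 FPKM in WT in salt, and 182.3 to 467.9 FPKM in osmft1 in water, above WT in water, and 806.8 to 1334 FPKM in osmft1 in salt, with 1 of the 6 under 1 FPKM in every group. The whole seed was sampled, so fewer cells of a type and less RNA per cell cannot be told apart.

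HsfA2a, the transcription factor of the set, was among its lowest genes in water and several times higher in salt in both genotypes. In WT, Os03g0745000 (HsfA2a) stood at 4.04, 1.45 and 1.93 FPKM in replicates 1, 2 and 3 in water and at 15.4, 28.4 and 3.83 FPKM in salt. The same locus read 2.56, 1.59 and 2.02 FPKM in osmft1 in water and 13.7, 11.0 and 10.8 FPKM in osmft1 in salt. The salt and water libraries were apart in osmft1, while in WT the lowest salt library, replicate 3, lay just under the highest water library, replicate 1. HsfA2a rose in salt, by 2.00 ± 0.51 (SE) on the log2 scale in WT (limma adjusted p = 0.00555) and by 2.08 ± 0.51 in osmft1 (adjusted p = 0.00613). The size in WT depended on single salt libraries, at 2.73 without replicate 3 and 1.43 without replicate 2. Between genotypes the difference was -0.13 (95% interval -1.24 to 0.99; limma adjusted p = 0.874) in water and -0.06 (-1.17 to 1.06; adjusted p = 0.973) in salt, intervals that still allow a change of about 1 log2 unit either way. The log2 differences here and below are on the scale of log2(FPKM + 1), which understates changes of low genes such as this one. Each SE comes from 1 fit of 12 libraries, so a gene has the same SE for salt in both genotypes, whatever its spread in each.

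HSP101, the disaggregase, rose most evenly. Os05g0519700 (HSP101) was at 16.4, 9.81 and 6.79 FPKM in WT in water and at 10.7, 8.33 and 6.37 FPKM in osmft1 in water. In salt it reached 65.7, 107.8 and 53.1 FPKM in WT and 68.4, 67.0 and 67.7 FPKM in osmft1. Every salt library lay above every water library, and the 3 osmft1 salt libraries fell inside the WT range and within 1.02-fold of each other. The mean was 6.87-fold higher in salt in WT and 8.01-fold higher in osmft1, with log2 differences of 2.69 ± 0.30 (limma adjusted p = 1.82e-05) and 2.89 ± 0.30 (adjusted p = 2.3e-05). Between genotypes HSP101 differed by -0.29 (95% interval -0.94 to 0.36; limma adjusted p = 0.485) in water and by -0.09 (-0.74 to 0.56; adjusted p = 0.912) in salt.

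HSP81-1, a member of the HSP90 family of client chaperones, also rose in salt, from a low base. Os04g0107900 (HSP81-1) was at 8.90, 2.17 and 3.46 FPKM in WT in water and at 27.1, 64.6 and 12.8 FPKM in WT in salt. In osmft1 it stood at 2.47, 2.55 and 1.62 FPKM in water and at 15.5, 9.90 and 5.11 FPKM in salt. Salt and water libraries were apart within each genotype, and the genotypes overlapped in both treatments. The log2 difference for salt was 2.50 ± 0.55 (limma adjusted p = 0.00238) in WT and 1.70 ± 0.55 (adjusted p = 0.026) in osmft1. In osmft1 that call was lost without replicate 1 or 3 of osmft1 in water (adjusted p = 0.0517 and 0.0742) or without replicate 1 or 2 of osmft1 in salt (adjusted p = 0.0942 and 0.0589). It was also lost without both osmft1 libraries numbered 1 (adjusted p = 0.138) and with no filter on low values (adjusted p = 0.0521). In salt the osmft1 mean of 10.2 ± 5.22 FPKM (SD, n = 3) stood against a WT mean of 34.8 ± 26.8 FPKM, a log2 difference of -1.51 ± 0.55 that did not pass (limma adjusted p = 0.14).

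The 5 tested small HSPs had higher mean levels than HSP101, HSP81-1 and HsfA2a in every group, and Os01g0136100 on chromosome 1 had the highest mean in salt in both genotypes. Its level in WT was 298, 98.8 and 106 FPKM in water and 1041, 2126.5 and 711 FPKM in salt. In osmft1, Os01g0136100 was at 43.4, 49.9 and 46.1 FPKM in water and at 363, 326 and 263 FPKM in salt. No pair of the 4 groups that differ in 1 factor overlapped, so that Os01g0136100 was both higher in salt than in water and lower in osmft1 than in WT. It rose in salt by 2.98 ± 0.42 on the log2 scale (limma adjusted p = 0.000105) in WT and by 2.73 ± 0.42 (adjusted p = 0.000342) in osmft1, and among 22017 tested IDs its mean ranked 826 in WT in water and 49 in WT in salt.

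Os01g0136200, the other small HSP of that block, followed at a lower level. In WT it read 77.1, 17.0 and 23.5 FPKM in water and 171, 447 and 91.2 FPKM in salt, and in osmft1 18.1, 15.3 and 14.4 FPKM in water and 89.7, 89.5 and 53.1 FPKM in salt. Salt was above water in every library of both genotypes. The log2 difference for salt was 2.56 ± 0.57 (limma adjusted p = 0.00251) in WT and 2.18 ± 0.57 (adjusted p = 0.00897) in osmft1. The size in WT was 3.20 without replicate 1 in water and 1.95 without replicate 2 in salt, and the call in osmft1 was lost without both osmft1 libraries numbered 1 (adjusted p = 0.0513). The remaining small HSP of chromosome 1, Os01g0184100, held 0 to 5 reads per library, at most 0.409 FPKM, over all 12 libraries. A count of 5 reads has an exact 95% Poisson interval of 1.62 to 11.7 reads, and no change was detectable at this depth.

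Of the 3 tested small HSPs on chromosome 3, 2 rose in WT and 1 rose in osmft1, where 27.7% and 20.5% of all tested IDs rose. In osmft1 every salt library lay above every water library for all 3 genes. Os03g0266300, the highest of them by mean level, was at 239, 114.9 and 104 FPKM in WT in water and at 646, 1122.2 and 431 FPKM in WT in salt. In osmft1 it read 93.2, 108.5 and 95.9 FPKM in water and 293, 266 and 329 FPKM in salt. All salt libraries exceeded all water libraries of their genotype, and Os03g0266300 rose by 2.25 ± 0.34 on the log2 scale (limma adjusted p = 0.000163) in WT and by 1.56 ± 0.34 (adjusted p = 0.00285) in osmft1.

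Os03g0266900 stood at 131, 45.0 and 50.7 FPKM in WT in water and at 223, 367 and 57.7 FPKM in WT in salt. In osmft1 it was at 47.1, 49.4 and 43.6 FPKM in water and at 117, 58.6 and 105 FPKM in salt. WT overlapped, since replicate 3 in salt lay below replicate 1 in water, and osmft1 did not. Its log2 differences for salt, 1.31 ± 0.58 (limma adjusted p = 0.0734) in WT and 0.93 ± 0.58 (adjusted p = 0.211) in osmft1, did not pass. The shared SE hides unlike spreads, with log2 SDs of 0.834 in water and 1.37 in salt in WT and of 0.089 and 0.529 in osmft1. In a fit of the 6 osmft1 libraries alone the difference in osmft1 passed (limma adjusted p = 0.0213). The call in WT was gained without replicate 3 of WT in salt, at 2.08 (adjusted p = 0.00223), and without replicate 1 of WT in water, at 1.79 (adjusted p = 0.0255). Without replicate 2 of WT in salt the difference was 0.75 (adjusted p = 0.287).

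Os03g0267000 was at 66.4, 33.0 and 33.3 FPKM in WT in water and at 138, 257.8 and 54.0 FPKM in WT in salt. Its osmft1 libraries read 36.5, 35.1 and 29.5 FPKM in water and 95.2, 51.6 and 93.1 FPKM in salt. Replicate 3 of WT in salt again lay under replicate 1 of WT in water, while osmft1 did not overlap. Os03g0267000 rose in WT by 1.55 ± 0.47 (limma adjusted p = 0.0145), a call lost without replicate 2 or 3 of WT in water (adjusted p = 0.0516 and 0.0527) or replicate 2 of WT in salt (1.03, adjusted p = 0.0605), or in a fit of the 6 WT libraries alone (adjusted p = 0.0578). Without replicate 3 of WT in salt it was 2.14. In osmft1 its difference of 1.17 ± 0.47 did not pass (limma adjusted p = 0.0593), and it passed without replicate 2 or 3 of WT in salt (adjusted p = 0.0246 and 0.0138) or replicate 2 of osmft1 in salt (adjusted p = 0.0397).

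**Figure D1:**
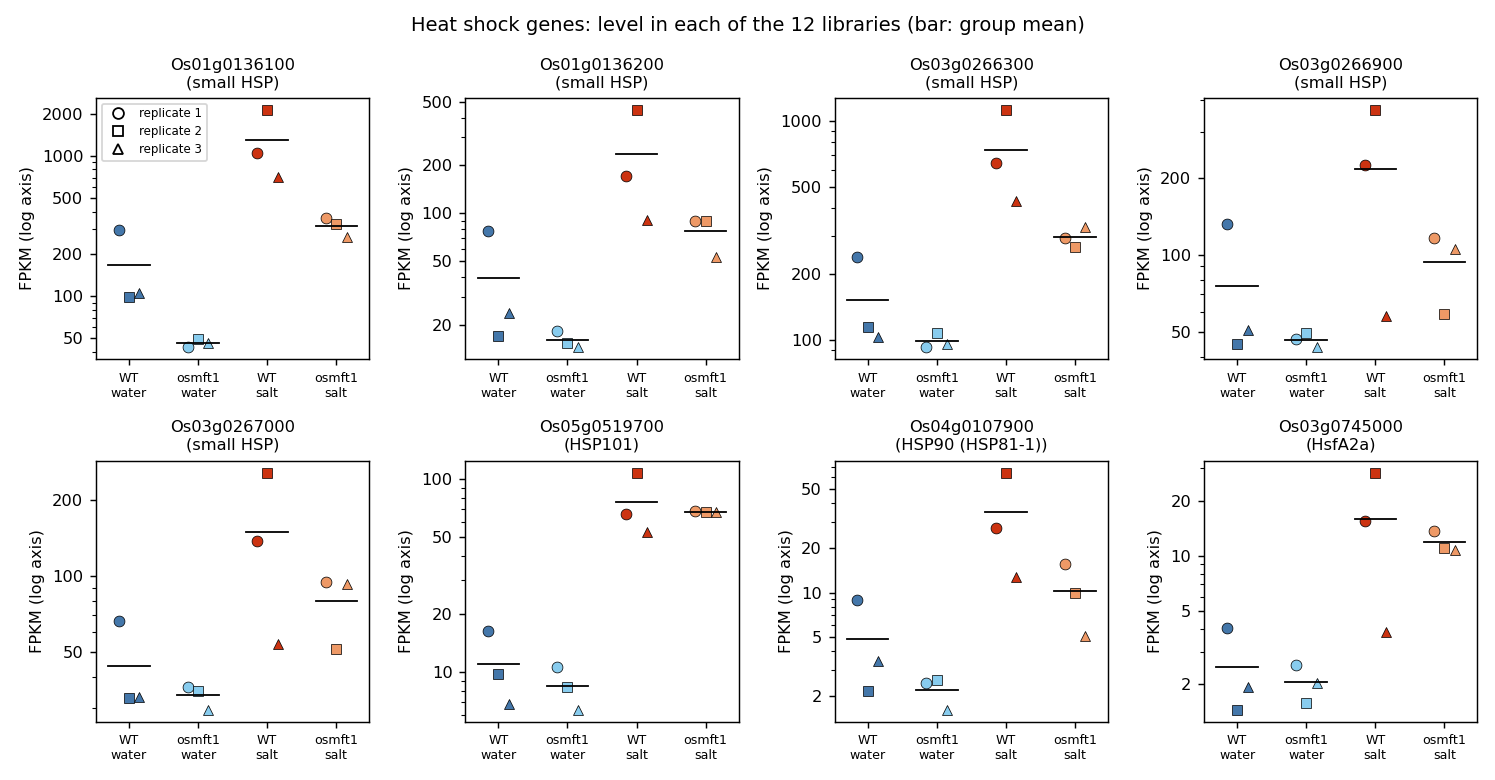
Level of each of the 8 tested heat shock genes in the 12 libraries, in FPKM on a log axis, by group; symbols mark the replicate number and the horizontal bar is the group mean. For Os01g0136100 salt lies above water within each genotype and osmft1 below WT within each treatment, while the 3 osmft1 salt libraries of HSP101 lie together at 67.0 to 68.4 FPKM, inside the range of WT in salt.

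The first comparison asked how WT seeds in salt differed from WT seeds in water. Of the 8 tested heat shock genes, 7 rose in salt and none fell, with Os03g0266900 the exception. Among all tested IDs 55.9% were called in either direction, 27.7% higher and 28.2% lower. The median log2 difference was 2.38 over the 8 genes, from 1.31 to 2.98, and 0.04 over all tested IDs. For 5 of the 8 genes no salt library overlapped a water library, while 32.8% of all tested IDs were separated in that direction. Over 24 alternative settings the number of genes that rose ran from 6 to 8.

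In osmft1 the same comparison found 6 of 8 heat shock genes higher in salt and none lower, against 46% of all tested IDs called in either direction, 20.5% higher and 25.5% lower. Os03g0266900 and Os03g0267000 did not pass. The median log2 difference was 1.89, from 0.93 to 2.89, and that of all tested IDs was -0.11. In all 8 genes each osmft1 salt library lay above each osmft1 water library, a separation that 24.6% of all tested IDs showed. The number that rose ran from 4, without both osmft1 libraries numbered 1, to 8, in a fit of the 6 osmft1 libraries alone.

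Late embryogenesis loci rose in salt beside the heat shock genes, while storage protein loci went both ways in osmft1. A list of 3 late embryogenesis loci rose in full in both genotypes, and its summed level went from 241 to 523 FPKM in WT in water to 3571 to 6698 FPKM in WT in salt, and from 234 to 415 FPKM to 2448 to 3044 FPKM in osmft1. Of 5 tested storage protein loci 4 rose in WT, while in osmft1 2 rose and 3 fell. Over all tested IDs 27.7% rose in WT, and 20.5% rose and 25.5% fell in osmft1. The part of these genes, or of the germination stage they mark, in the heat shock result was not tested.

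**Figure D2:**
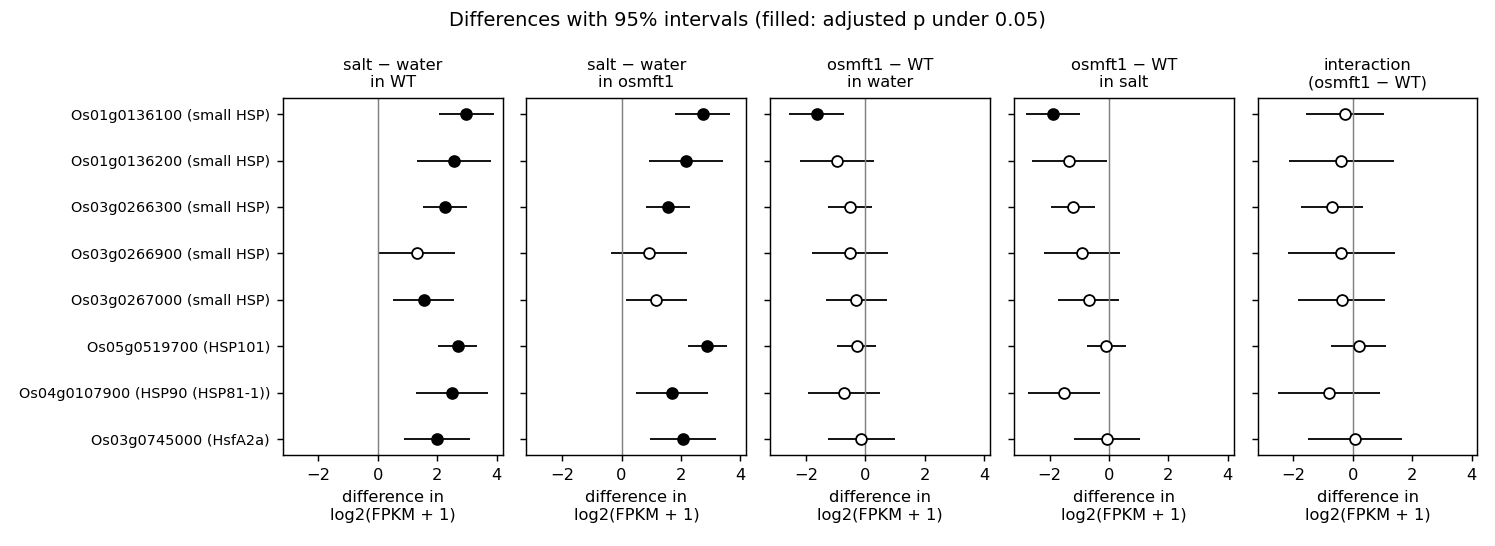
Log2 difference of log2(FPKM + 1) with its 95% interval for each tested heat shock gene, in the 4 pairwise comparisons and the interaction; filled points passed a limma adjusted p under 0.05. All 8 genes lie to the right of 0 for salt in both genotypes and to the left of 0 for osmft1 against WT, where 1 gene passed in each treatment; no interaction passed.

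Between genotypes in water, Os01g0136100 was the 1 of 8 heat shock genes that changed. It fell by 1.64 ± 0.42 on the log2 scale in osmft1 (limma adjusted p = 0.0149), from a mean of 167.5 ± 112.7 FPKM (SD, n = 3) in WT to 46.5 ± 3.27 FPKM in osmft1, 3.61-fold lower. Replicate 1 of WT carried part of that size: without it the WT mean was 102.4 FPKM, 2.2-fold above osmft1, and the log2 difference -1.13 (adjusted p = 0.033). Of all tested IDs 30.4% were called in this comparison in either direction, 20% higher and 10.4% lower. The differences of the other 7 genes ran from -0.95 for Os01g0136200 (limma adjusted p = 0.226) to -0.13 for HsfA2a, and the median of all 8 was -0.51 against 0.11 over all tested IDs. These differences share replicate 1 of WT, the highest WT water library for all 8 genes (43.3% of all tested IDs). Without it Os01g0136200 was at -0.32, and Os03g0267000, HsfA2a and HSP101 turned to 0.0179, 0.18 and 0.0176, while the other genes stayed below 0. Os01g0136100 was also the only gene of the set whose osmft1 water libraries all lay below the WT ones, while 17.2% of all tested IDs were separated that way. The call was lost without replicate 1 of osmft1 in water, at -1.59 (limma adjusted p = 0.0548). Median-ratio scaling moved the median of all tested IDs from 0.11 to -0.06 and their calls from 4410 higher and 2293 lower to 2904 higher and 3929 lower, with Os01g0136100 at -1.85 (limma adjusted p = 0.00784).

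In salt, Os01g0136100 was again the heat shock gene that changed between genotypes. It fell by 1.89 ± 0.42 on the log2 scale in osmft1 (limma adjusted p = 0.0264), from 1292.8 ± 740.7 FPKM (SD, n = 3) in WT to 316.9 ± 50.6 FPKM, 4.08-fold lower. Here 5.45% of all tested IDs were called, 4.33% higher and 1.12% lower, or 953 and 246 IDs. Median-ratio scaling gave 415 higher and 315 lower, with Os01g0136100 at -1.98 (limma adjusted p = 0.0258). Os03g0266300 stood at -1.20 ± 0.34 (limma adjusted p = 0.0628), Os01g0136200 at -1.33 ± 0.57 (adjusted p = 0.212), Os03g0266900 at -0.90 ± 0.58 (adjusted p = 0.435) and Os03g0267000 at -0.68 ± 0.47 (adjusted p = 0.47). For 3 of the 8 genes, Os01g0136100, Os01g0136200 and Os03g0266300, all osmft1 salt libraries lay below all WT salt libraries, a separation found in 6.43% of all tested IDs. The median of the 8 genes was -1.05, and that of all tested IDs 0.07. These differences share replicate 2 of WT in salt, the highest WT salt library for all 8 genes (41.3% of all tested IDs). Without it HsfA2a turned to 0.52 and HSP101 to 0.19, while the other genes stayed below 0.

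That call was lost when any 1 of several salt libraries was left out, while the direction stayed the same. Os01g0136100 no longer passed in salt without replicate 1 or 2 of WT in salt (limma adjusted p = 0.068 and 0.0763) or without replicate 1, 2 or 3 of osmft1 in salt (adjusted p = 0.0543, 0.0581 and 0.0872), with the log2 difference between -2.24 and -1.45 whichever library was left out. Os03g0266300 passed as a second gene without replicate 1 of WT in water (adjusted p = 0.0284) or replicate 3 of WT in salt (adjusted p = 0.0329).

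Some seed loci differed between genotypes beside Os01g0136100. In osmft1 in water both alpha-amylase loci, whose enzymes break down starch in the germinating grain, and 3 of 5 tested storage protein loci were higher and 1 of 3 late embryogenesis loci was lower, where 20% of all tested IDs were higher and 10.4% lower. In salt 1 of 2 alpha-amylase loci and 1 of 5 storage loci were higher and none of the 3 late embryogenesis loci passed, where 4.33% of all tested IDs were higher and 1.12% lower. The summed level of the alpha-amylase loci was 3229 to 3455 FPKM in WT in water and 12724 to 14054 FPKM in osmft1 in water, and 1445 to 3259 FPKM against 4742 to 6111 FPKM in salt. The late embryogenesis sum was lower in each osmft1 salt library than in each WT salt library and overlapped in water. The part of these genes in the difference of Os01g0136100 was not tested.

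The interaction asked whether the salt response differed between genotypes. None of the 8 heat shock genes passed in limma, and none had an unadjusted p under 0.05. Over all tested IDs 13% passed, 6.92% higher and 6.12% lower, and 33.6% had such an unadjusted p. With limma-voom on the recovered reads the count of heat shock genes was also 0. The SEs of the 8 estimates ran from 0.42 to 0.82 log2 units, so a count of 0 does not show that the responses were equal. The estimates, osmft1 response minus WT response, ran from -0.80 for HSP81-1 (95% interval -2.51 to 0.91; limma adjusted p = 0.497) to 0.20 for HSP101 (-0.72 to 1.12; adjusted p = 0.768). For Os01g0136100 the estimate was -0.25 (-1.55 to 1.05; adjusted p = 0.794), an interval that allows a response up to 1.55 log2 units smaller or 1.05 larger in osmft1.

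The make-up of the small HSP transcripts differed between the groups, given here as a description with no test. It is followed through Os01g0136100, the gene called between genotypes, so its share restates those values and is not a second result. The 5 tested small HSPs summed to 309 to 811 FPKM in WT in water, 230 to 258 FPKM in osmft1 in water, 1345 to 4321 FPKM in WT in salt and 791 to 957 FPKM in osmft1 in salt. Os01g0136100 made up 32.0% to 36.7% of that sum in WT in water and 18.2% to 20.1% in osmft1 in water. In salt its share was 46.9% to 52.9% in WT and 31.1% to 41.2% in osmft1. The share was thus higher in each WT library than in each osmft1 library of the same treatment, while the sums of WT and osmft1 also did not overlap. Against Os03g0266300, the most abundant chromosome 3 small HSP, the level of Os01g0136100 was 0.86- to 1.25-fold in WT in water, 0.46- to 0.48-fold in osmft1 in water, 1.61- to 1.90-fold in WT in salt and 0.80- to 1.24-fold in osmft1 in salt. Small HSPs form a multigene family with close copies, and if the authors' counting split or dropped reads shared between copies, the levels of single copies would shift.

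**Figure D3:**
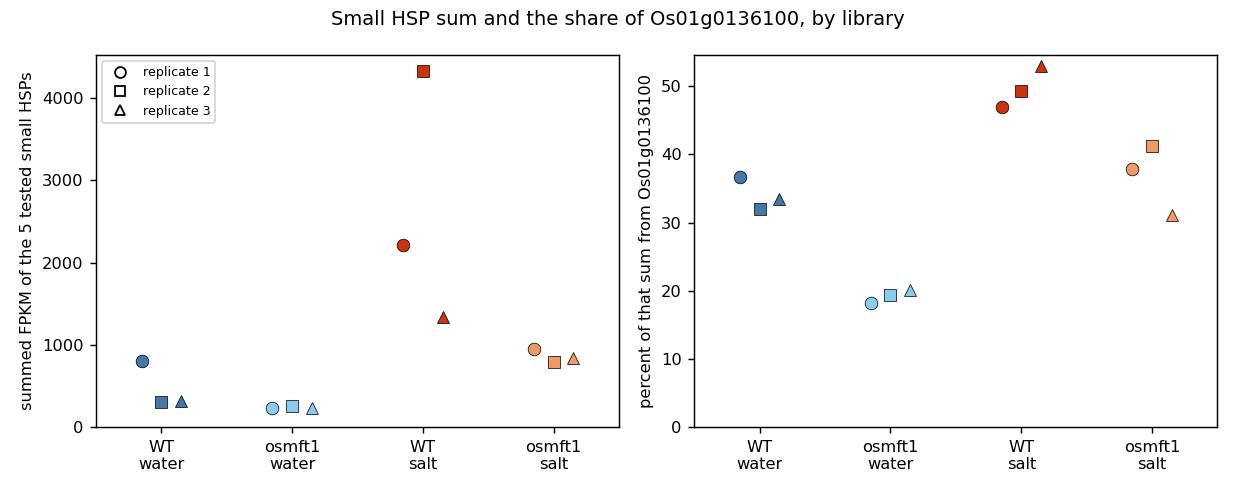
Left, summed FPKM of the 5 tested small HSPs in each library; right, the percent of that sum from Os01g0136100, by group, with symbols for the replicate number. The share is lowest in osmft1 in water, at 18.2% to 20.1%, and highest in WT in salt, at 46.9% to 52.9%.

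The heat shock genes also moved together between replicates of WT. Replicate 1 was the highest of the WT water libraries for all 8 genes, as it was for 43.3% of all tested IDs, with deviations of 0.61 to 1.26 log2 units from the group mean. Replicate 2 was the highest of the WT salt libraries for all 8 genes (41.3% of all tested IDs) and replicate 3 the lowest for all 8 (32.9%). In osmft1 in water the highest library was replicate 1 for 4 genes (54.5% of all tested IDs) and replicate 2 for the other 4 (17.9%). In osmft1 in salt replicate 1 was highest for 7 of 8 (30.6%), for some by small margins. It stood at 68.4 FPKM against 67.7 in replicate 3 for HSP101, and at 89.7 against 89.5 in replicate 2 for Os01g0136200. The lowest library there was replicate 2 for 4 genes (27.8%) and replicate 3 for the other 4 (42.8%).

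The spread within WT was accordingly wide. The SD of log2(FPKM + 1) had a median of 1.13 over the 8 genes in WT in salt and of 0.74 in WT in water, against 0.17 and 0.19 over all tested IDs. In WT in salt 7 of the 8 genes, and in WT in water 4 of 8, exceeded the 95th percentile of all tested IDs, 0.68 and 0.70 in these groups. The osmft1 medians were 0.16 in water and 0.33 in salt, against 0.19 and 0.21, and no gene passed the 95th percentile there. The late embryogenesis sum was likewise highest in replicate 2 among the WT salt libraries, at 6698 FPKM, but replicate 3, at 4535 FPKM, was above replicate 1, at 3571 FPKM.

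**Figure D4:**
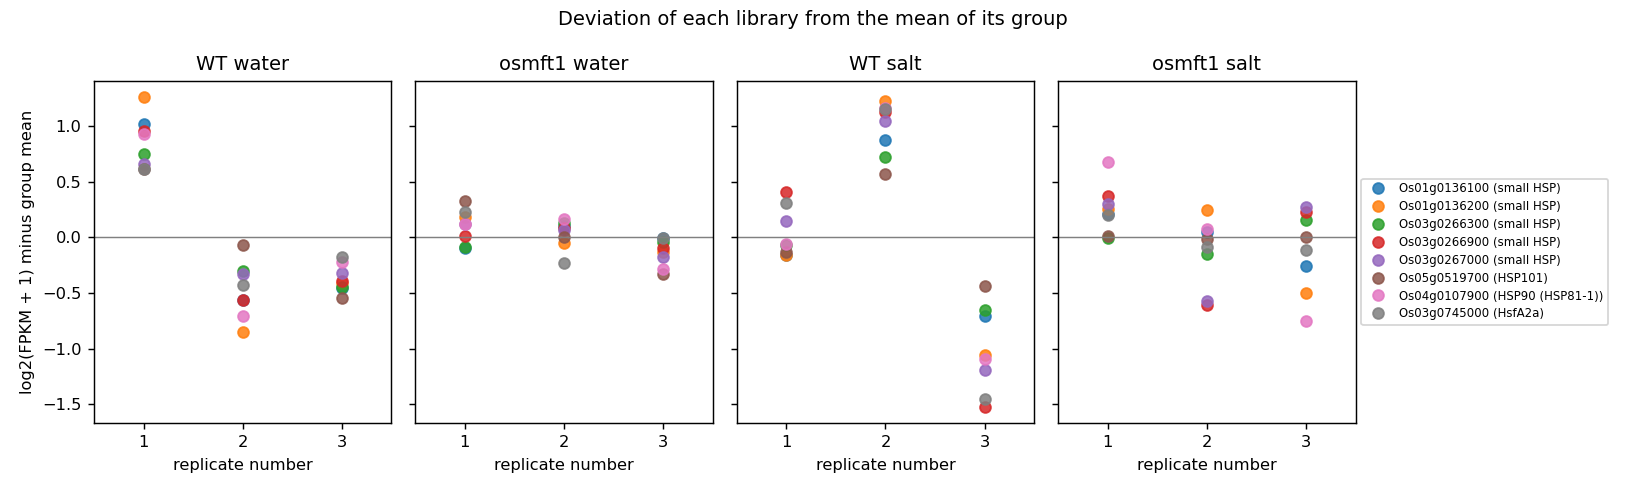
Deviation of each library from its group mean, in log2(FPKM + 1), for the 8 tested heat shock genes, by replicate number within each group. All 8 genes lie above 0 in replicate 1 of WT in water and in replicate 2 of WT in salt, and below 0 in replicate 3 of WT in salt.

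Per length, the order of the levels changed with the group. In WT in water it ran from Os01g0136100 and Os03g0266300 through Os03g0266900, Os03g0267000 and Os01g0136200 to HSP101, HSP81-1 and HsfA2a, and only Os01g0136200 and HSP101 were neighbours whose libraries did not overlap. In osmft1 in water Os03g0266300 led, at 99.2 ± 8.18 FPKM (SD, n = 3), clear of Os03g0266900 at 46.7 ± 2.92 FPKM and Os01g0136100 at 46.5 ± 3.27 FPKM, which overlapped each other. WT in salt kept Os01g0136100 and Os03g0266300 in front and placed Os01g0136200 after them, with every neighbouring pair overlapping. In osmft1 in salt the leading pair, at 316.9 ± 50.6 and 296.0 ± 31.9 FPKM, overlapped and was clear of the other small HSPs, and HSP101 was clear of HsfA2a and HSP81-1, which overlapped at the bottom. HsfA2a moved from rank 15816 of 22017 tested IDs in WT in water to 6609 in WT in salt, and HSP101 from 8180 to 1746.

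Loci next to the small HSPs rose in some cases and fell in others. The numbers in Os IDs follow the order of loci on a chromosome, and the 5 IDs listed on each side of each block were taken, with those in between. Over all tested IDs 27.7% rose and 28.2% fell in salt in WT, and 20.5% rose and 25.5% fell in osmft1. Of 10 tested neighbours on chromosome 3, 2 rose and 5 fell in salt in WT, and 2 rose and 6 fell in osmft1. Os03g0266800, numbered between Os03g0266300 and Os03g0266900, stood at 33.7, 32.2 and 28.9 FPKM in WT in water and at 12.2, 15.2 and 13.8 FPKM in WT in salt. It fell by 1.15 ± 0.14 on the log2 scale in WT (limma adjusted p = 3.91e-05) and by 1.42 ± 0.14 in osmft1 (adjusted p = 1.88e-05), opposite in direction to the small HSPs on both sides. Of 8 tested neighbours on chromosome 1, 4 rose and 3 fell in WT and 4 rose and 1 fell in osmft1.

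Os01g0135800, singled out after its values were seen, lies 3 loci before Os01g0136100 and followed it in WT. It read 5.68, 0.729 and 1.55 FPKM in WT in water and 19.3, 56.4 and 6.87 FPKM in WT in salt, with the same replicates highest and lowest in salt as in the small HSPs. In osmft1 it was at 1.31, 1.06 and 1.13 FPKM in water and 3.92, 3.53 and 4.11 FPKM in salt. It rose in WT by 2.76 ± 0.61 (limma adjusted p = 0.00227), while 1.16 ± 0.61 in osmft1 (adjusted p = 0.137) and -2.11 ± 0.61 between genotypes in salt (adjusted p = 0.068) did not pass.

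**Figure D5:**
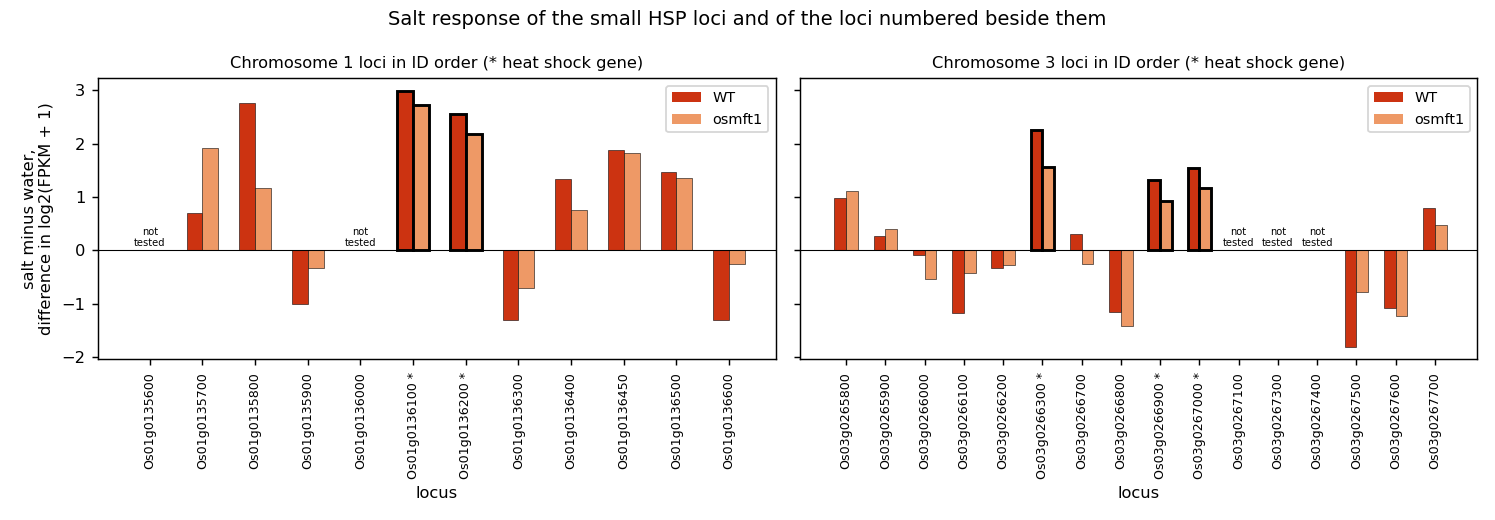
Log2 difference between salt and water for the small HSPs and the loci around them, in ID order on chromosomes 1 and 3, for WT and osmft1; each position is one locus, not a distance, and loci too low to test are marked. Os03g0266800 is below 0 between small HSPs that are above 0.

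Among 10599 non-member IDs with a mean of at least 10 FPKM in their highest group, the profiles most like the mean of the 8 heat shock genes over the 12 libraries were those of Os03g0745600 (Pearson r = 0.968) and Os03g0316200 (r = 0.967). The 8 genes themselves reached 0.917 to 0.984 with a mean they are part of. Of the 10599 IDs, 216 exceeded 0.9, so a likeness of this size was not limited to the IDs named. Os03g0745600, whose number follows closely on that of HsfA2a, rose by 2.54 ± 0.38 in WT (limma adjusted p = 0.000173) and by 1.66 ± 0.38 in osmft1 (adjusted p = 0.00446). HsfA2a alone was most like Os05g0562300 (r = 0.979) and Os09g0135700 (r = 0.963), and HSP81-1 most like Os04g0108101 (r = 0.97) and Os10g0564500 (r = 0.962). The number of Os04g0108101 likewise follows closely on that of HSP81-1, and where loci overlap, reads of one could have been counted for the other. The correlations have no p, since the libraries share the 4 groups.

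Other heat shock loci, listed from published knowledge because the files do not pair IDs with names, are given as counts beside the shares over all tested IDs, 27.7% higher and 28.2% lower in WT and 20.5% higher and 25.5% lower in osmft1. Of 15 tested heat shock factor loci other than HsfA2a, 12 rose and 1 fell in salt in WT, and 8 rose and 2 fell in osmft1, with medians of 0.71 and 0.62. Their summed level was 109 to 147 FPKM in WT in water and 285 to 431 FPKM in WT in salt. Of 9 other tested small HSP loci, which include forms sent to organelles, 3 rose and 1 fell in each genotype, with medians of 0.82 and 0.49. Of 11 tested HSP70, HSP90 and ClpB loci, 4 rose and 1 fell in WT and 2 rose and 1 fell in osmft1, with medians of 0.18 and 0.11.

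Between genotypes, 20% of all tested IDs were higher and 10.4% lower in osmft1 in water, and 4.33% higher and 1.12% lower in salt. In water 2 of the 15 factor loci were higher and 1 lower in osmft1, 2 of the 9 other small HSP loci were lower, and 3 of the 11 HSP70, HSP90 and ClpB loci were higher. In salt 1 of 15 factor loci and 2 of 9 other small HSP loci were lower in osmft1, and 2 of 11 HSP70, HSP90 and ClpB loci were higher. The HSP70, HSP90 and ClpB loci together held 4331 to 4441 FPKM in WT in water and 4388 to 4614.5 FPKM in osmft1 in water. In salt they held 5188 to 5592 FPKM in WT and 4401 to 5063 FPKM in osmft1. Their sum was thus lower in each osmft1 salt library than in each WT salt library, and overlapped in water.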

How the data were processed

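RNA was extracted from seeds with a pBIOZOL reagent and libraries were made with the NEBNext Ultra kit for RNA, per the labels. Bowtie2 2.2.3, HISAT2 2.1.0, HTSeq 0.6.0 and the genome IRGSP-1.0 are named, without their roles, per the submitters' processing notes. The annotation release and strand setting were not given in the sources used here. Reads of overlapping or antisense loci therefore cannot be told apart. The deposited values were taken as FPKM made by the authors, since no header states a unit. Within an ID they are whole multiples of 1 step, and for tested IDs each of the 255815 values above 0 was a whole number of reads to within 0.003, so the reads behind them were recovered, at least 99.9971% of each implied total.

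An ID entered the test where 3 or more libraries reached 1 FPKM, and log2(FPKM + 1) was fitted with limma 3.58.1 in R 4.3.3, in 1 fit of 12 libraries with a mean per group and a variance trend. Benjamini-Hochberg adjustment ran over all 22017 tested IDs in each comparison, and an ID counted as changed, called, risen or fallen at an adjusted p under 0.05. The alternatives were another pseudocount (0.1), 2 other filters, 3 other scalings, removal of the length trend, a replicate block, voom on the recovered reads with and without sample weights, fits of 6 libraries, and leaving out each library or both osmft1 libraries numbered 1. The code was tested on simulated data. Poisson intervals cover counting error only. Replicates differed by a chi-square of 7.90 to 24.6 per degree of freedom, so no library repeats another.

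The members and lists were chosen with earlier results of these data known. Members were named by locus as given, and other IDs by place in ID order (5 on each side, at most 2 named), by Pearson r (2 per profile) or as lists. None of the members matched the gene table at hand, so names come from the locus list and no sequence or coordinate is given. Tables were read with pandas 2.3.3, numpy 2.4.6, scipy 1.17.1 and numba 0.67.0 in Python 3.11.15, and plots drawn with matplotlib 3.10.9.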

Additional observations from a re-analysis of the deposited data

How the results depend on the processing

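The number of heat shock genes that changed stayed within 1.5 times for salt in WT (7; 6 to 8 over 24 alternatives and when each library was left out) and in osmft1 (6; 4 to 8, and 5 to 7 with each library left out), and for the interaction it was 0 in all 23. For osmft1 against WT in water it was 1 and became 0 without both osmft1 libraries numbered 1, with a range of 0 to 1 when each library was left out. For osmft1 against WT in salt it was 1 and became 0 with no filter on low values, in a fit of 6 libraries and without both osmft1 libraries numbered 1, and 2 with voom on recovered reads, with or without sample weights. It ran from 0 to 2 when each library was left out. The causes were not tested.

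With sample weights the salt difference between genotypes turned to 0.30 for HsfA2a and 0.0225 for HSP101. With each library left out, differences that had not passed changed sign within these ranges: in water from -0.48 to 0.0179 for Os03g0267000, -0.34 to 0.18 for HsfA2a and -0.56 to 0.0176 for HSP101; in salt from -0.78 to 0.52 for HsfA2a and -0.31 to 0.19 for HSP101. For the interaction they were -0.76 to 0.18 for Os01g0136100, -1.02 to 0.22 for Os01g0136200, -1.15 to 0.17 for Os03g0266900, -0.97 to 0.15 for Os03g0267000, -0.66 to 0.65 for HsfA2a and -0.11 to 0.48 for HSP101.

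Removing each library's trend on gene length added Os03g0266900 to the genes that rose in WT (1.53, limma adjusted p = 0.0464). For salt in osmft1, Os03g0267000 also passed with median-ratio scaling, with sample weights and in the fit of 6 libraries (adjusted p = 0.0451, 0.0313 and 0.00778), and Os03g0266900 in the last (0.0213). The replicate numbers gave no clear sign of pairing: deviations of libraries with the same number correlated from -0.191 to 0.241, and 12 of 36 library and group pairs correlated best with their own number. With 3 libraries per group this cannot exclude that equal numbers share a seed lot or a batch. With the replicate number as a block the counts were 7 for salt in WT, 6 for salt in osmft1, 1 for each genotype comparison and 0 for the interaction. Over all tested IDs the number called ran from 3067 to 8017 (6703 as reported) for the genotypes in water, from 330 to 1406 (1199) in salt and from 321 to 4247 (2872) for the interaction. Depth limits Os01g0184100 and OsMFT1.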
